A study of Homo sapiens with 9 samples.

Results

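The genes described here are BZW1, BZW2 and the factors with which their products share start codon selection: EIF5, EIF1, EIF1AX and the eIF2 subunit genes EIF2S1, EIF2S2 and EIF2S3. Members are all probe sets that the platform annotation gives to these 8 genes alone, 27 of the 54675 on the array. One further probe set is annotated to EIF5 together with a small nucleolar RNA gene and is not among them. BZW1 was chosen by its low signal with miR-376a*A in these same arrays, so its differences are given below as a description, with no test. The other 7 genes were added for their function, with earlier results of these data known.

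SW1783, an established human glioma cell line, was transfected for 24 h with 50 nM of a synthetic miRNA duplex by lipofection. Total RNA was hybridised to Affymetrix arrays, 3 per group, and the labels call the arrays of a group biological replicates. The groups are miR-376a*A, miR-376a*G and a control miRNA, named so in the labels, which give none of the sequences. All groups carried a transfected duplex, 1 cell line was used, and protein levels are not analysed here. Of 10 glial and glioma markers 4 had a probe set at or above the median brightness of all probe sets, namely VIM, CD44, SOX9 and SOX2, while GFAP, S100B, OLIG2, NES, AQP4 and FABP7 did not. None of 4 leukocyte markers had one, against 1 of 3 epithelial (KRT18), 1 of 3 endothelial (PECAM1) and 3 of 4 neuronal markers.

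A scanning ribosome searches for a start codon with eIF1 and eIF1A on its small subunit and with eIF2 holding the initiator tRNA. eIF5 makes eIF2 hydrolyse its GTP, and the release of eIF1 commits the ribosome to the codon. BZW1 and BZW2 are eIF5-mimic proteins: they carry the same kind of C-terminal domain as eIF5 (the W2 domain), bind eIF2 without activating its GTPase, and make start codon selection stricter. eIF2 is also the point where stress kinases slow translation by phosphorylating its alpha subunit, which favours translation of the transcription factor ATF4.

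As background on this miRNA, A-to-I editing of its precursor changes a base of the seed, through which a miRNA finds its target messages. The name miR-376a*A stands for the unedited form and miR-376a*G for the edited one, with G in place of inosine. The genomic, unedited sequence is shown because the forms differ within it, with the seed (bases 2 to 8) in capitals. RefSeq's table for GRCh38.p14 places it at chr14:101040788-101040809, plus strand, in MIR376A1, under its current name hsa-miR-376a-5p. Differences between the forms are given below as miR-376a*A minus miR-376a*G.
hsa-miR-376a-5p: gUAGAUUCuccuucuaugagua

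Both probe sets of BZW1 were low on every miR-376a*A array. For 200777_s_at, the brighter one, the signals deposited by the authors were 387, 421 and 387 after miR-376a*A, 1210, 1192 and 1279 after miR-376a*G, and 1419, 1293 and 1306 in control cells. The second probe set, 200776_s_at, gave 345, 381 and 351 after miR-376a*A, 1058, 888 and 947 after miR-376a*G, and 969, 1082 and 1058 in control cells. The highest miR-376a*A array thus lay far below the lowest array of either other group with both probe sets. Across the 9 arrays the normalized log2 values of the 2 probe sets had a Pearson r of 0.99, a description in which the points share the arrays.

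On the log2(signal + 16) scale after quantile normalization, 200777_s_at was lower with miR-376a*A than in control cells by 1.71 (SE 0.08, n = 3 per group), which left 30.6% of the control level. The difference for 200776_s_at was -1.51 (SE 0.10), or 35.0% of the control level. Against miR-376a*G the differences were -1.62 (SE 0.08) and -1.39 (SE 0.10), or 32.6% and 38.0% of the miR-376a*G level. In the brightest probe set BZW1 had the fourth lowest difference against control among 12505 genes, and the sixth lowest against miR-376a*G. These values chose the gene and support nothing further. In bulk RNA, fewer cells with the transcript and less of it per cell cannot be told apart.

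With miR-376a*G the 2 probe sets of BZW1 stood near control, at -0.09 (SE 0.08, 95% interval -0.27 to 0.09) and -0.12 (SE 0.10, -0.34 to 0.10). The deposited signals of 200777_s_at did not overlap between miR-376a*G and control, which held for 20.9% of all probe sets tested, but after normalization they did overlap. The intervals leave room for a BZW1 level with miR-376a*G somewhat below control. In the order of levels miR-376a*A is last, and miR-376a*G and control are not separated beyond their spread.

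Leaving out control replicate 1, an array described further down that stands apart from the rest, the differences of the 2 probe sets from control were -1.72 and -1.57 with miR-376a*A and -0.13 and -0.20 with miR-376a*G.

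BZW2 encodes the other eIF5-mimic protein and has 1 probe set on the array. Its signals were 994, 976 and 1042 after miR-376a*A, 964, 932 and 977 after miR-376a*G, and 886, 1036 and 1061 in control cells. The groups overlapped in every comparison. The log2 difference was -0.02 (SE 0.09, 95% interval -0.23 to 0.19) with miR-376a*A against control, -0.07 (-0.28 to 0.14) with miR-376a*G against control and 0.05 (-0.16 to 0.26) between the forms. Limma adjusted p, over all genes, was 0.946, 0.766 and 0.978 in this order. With control replicate 1 left out, the lowest of the 3 controls, BZW2 was at -0.13 with miR-376a*A (adjusted p = 0.173) and -0.17 with miR-376a*G (adjusted p = 0.0617, interval -0.30 to -0.05).

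**Figure D1:**
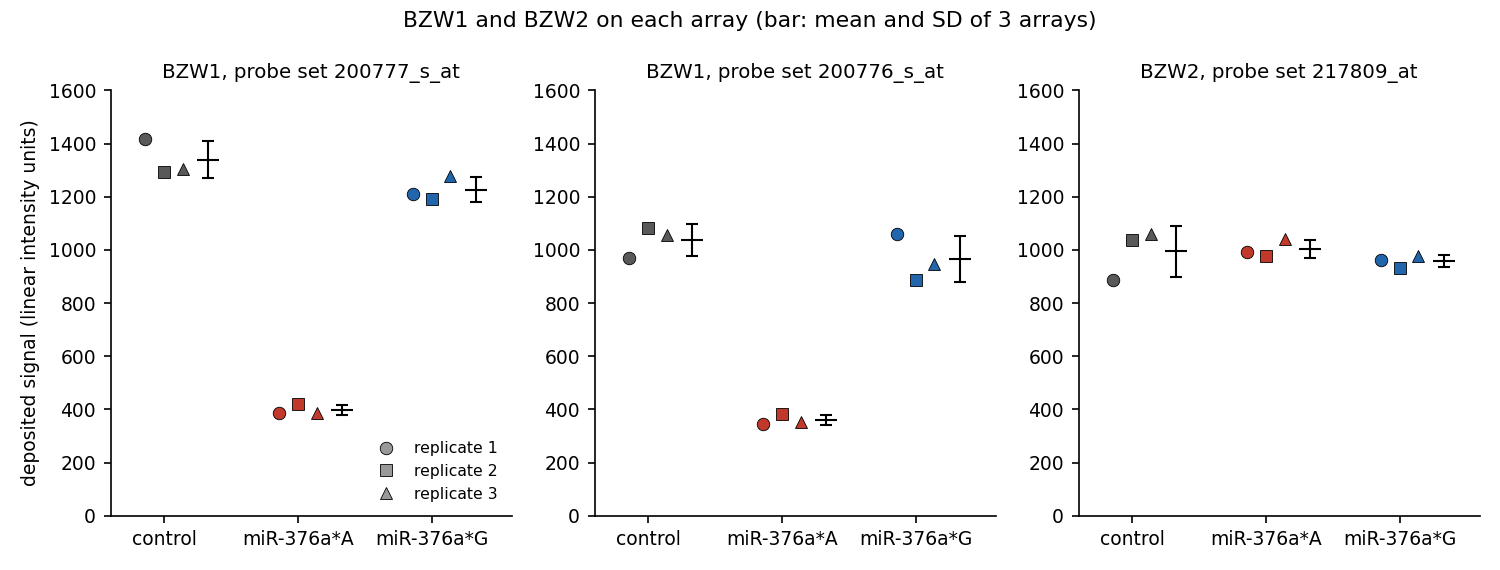
Deposited signal (linear intensity units) of the probe sets of BZW1 and BZW2 on each of the 9 arrays, by group, with the mean and SD of 3 arrays beside the points. The miR-376a*A arrays lie between 345 and 421 for both BZW1 probe sets and between 976 and 1042 for BZW2, where the groups overlap.

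None of the 7 genes other than BZW1 passed limma's test, by its brightest probe set, in any of the 3 comparisons. Over all 12505 genes, 3.33% were called for miR-376a*A against control, 4.62% for miR-376a*G against control and 2.63% between the forms. The number of the 7 with an unadjusted p under 0.05 was 1, 0 and 0, and the share of all genes at that level is not given here. The 7 differences ran from -0.11 to 0.13, from -0.11 to 0.05 and from -0.11 to 0.14. Their medians were -0.05, 0.02 and -0.08, against 0.01, 0.01 and 0.00 over all genes. The widest bound of any 95% interval was -0.35, -0.28 and -0.35, so a change beyond 1.28-fold in these probe sets lies outside the intervals. With arrays weighted by their quality EIF1AX alone passed, for miR-376a*G against control (-0.19, adjusted p = 0.0248). That fit called 2427 of the 12505 genes in this comparison.

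**Figure D2:**
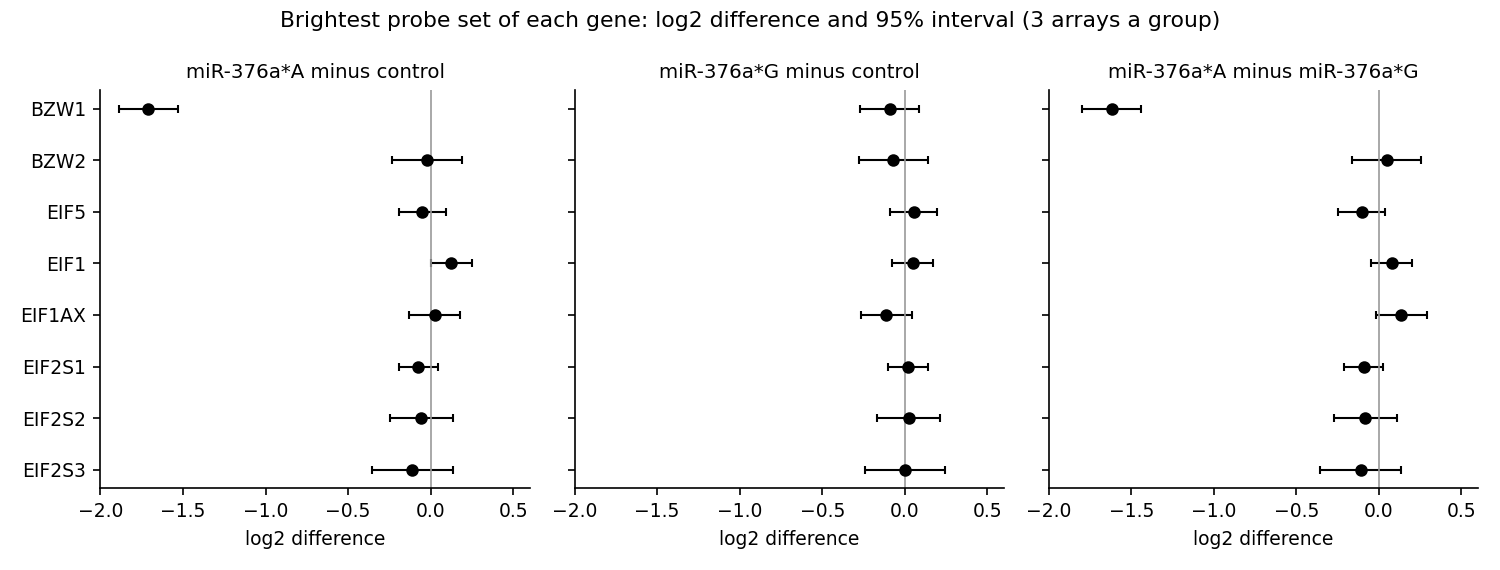
Log2 difference of each gene's brightest probe set with its 95% interval, for the 3 comparisons, from 3 arrays a group. BZW1 is at -1.71 and -1.62 where miR-376a*A is compared, and the other 7 genes lie within 0.14 of 0.

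One array bears on every comparison with control. Control replicate 1 had a highest rank correlation with any other array of 0.941, against 0.969 or more for the other 8, and a highest signal of 7191. In the deposited values its member probe sets ran from 0.379 (EIF1AX 201016_at) to 1.81 times the mean of the other controls, and 4 bright EIF1 probe sets stood at 1.47 to 1.81 times. After normalization the gap of that EIF1AX probe set was still -1.23 on the log2 scale, while the bright EIF1 probe sets lay within 0.18 of the other controls. Whether this array or the treatment sets a given small difference against control was not tested. The differences from control in each member's brightest probe set, and the calls in each gene list, are given with and without it.

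EIF5 encodes the GTPase activator that BZW1 and BZW2 mimic. Its brightest probe set, 208705_s_at, had signals of 1680, 1840 and 1975 after miR-376a*A, 2053, 1831 and 1795 after miR-376a*G, and 2768, 1836 and 1614 in control cells. The controls spanned both treated groups. The log2 differences were -0.05 (SE 0.06), 0.05 (SE 0.06) and -0.10 (SE 0.06) for the unedited form against control, the edited form against control and between the forms (limma adjusted p = 0.774, 0.726 and 0.701). Leaving out control replicate 1 gave -0.01 and 0.09 against control (adjusted p = 0.945 and 0.333).

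Between the forms all 5 probe sets of EIF5 had differences below 0, from -0.28 to -0.01. They read the same transcripts and are not replicates. The values behind the widest difference, in 208708_x_at, were 606, 651 and 625 after miR-376a*A, 732, 742 and 802 after miR-376a*G, and 666, 672 and 665 in control cells. The groups did not overlap in any of the 3 comparisons, with control in between. Deposited signals did not overlap for 19.1% of all probe sets with miR-376a*A against control, 20.9% with miR-376a*G and 26.4% between the forms. The share separated in all 3 comparisons at once is not given here. The difference between the forms was -0.28 (SE 0.08, 95% interval -0.45 to -0.11) and did not pass over 22896 probe sets (limma adjusted p = 0.138, with 2.04% of probe sets called). With control replicate 1 left out, which enters this comparison through the shared spread and the normalization, it passed at -0.28 (adjusted p = 0.0198, with 8.12% called). Nearby in size was 208290_s_at (-0.22, adjusted p = 0.384, and 0.0639 without that array).

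EIF1 encodes the factor that keeps the ribosome scanning. Its brightest probe set, 211956_s_at, gave 2728, 2621 and 2990 after miR-376a*A, 2761, 2514 and 2344 after miR-376a*G, and 3605, 2516 and 2380 in control cells. The normalized difference with miR-376a*A against control was 0.13 (SE 0.06, 95% interval 0.00 to 0.25), the one difference among the 7 genes with an unadjusted p under 0.05 (limma adjusted p = 0.327). It was 0.06 without control replicate 1 (adjusted p = 0.375), where miR-376a*G stood at -0.01 (0.887), and -0.01 with the arrays left as deposited, so its direction turns with the scaling. The next 3 probe sets in brightness, all of the _x_ type that can bind several related transcripts, were within 0.02 of 0 in every comparison. Of the 7 EIF1 probe sets, 212225_at was below the brightness filter, with signals of 7.43 to 18.8, and was not tested.

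EIF1AX encodes eIF1A, the partner of eIF1 on the scanning ribosome, and its 4 probe sets disagreed. The brightest, 201019_s_at, was at 0.03 with miR-376a*A against control and at -0.11 with miR-376a*G (SE 0.07 for each, limma adjusted p = 0.913 and 0.452), and at -0.02 and -0.15 without control replicate 1 (0.850 and 0.116), so the first turns its sign. Probe set 201018_at had signals of 484, 460 and 537 with miR-376a*G, 610, 628 and 671 with miR-376a*A, and 566, 687 and 734 in control cells. All 3 miR-376a*G arrays lay below all 6 others. Deposited signals did not overlap, in either direction, for 20.9% of all probe sets with miR-376a*G against control, and for 26.4% between the forms. The share with miR-376a*G below both other groups at once is not given here. The difference was -0.44 (SE 0.11) for miR-376a*G against control and 0.36 (SE 0.11) between the forms, neither past the threshold (limma adjusted p = 0.0517 and 0.171).

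These differences of 201018_at passed without control replicate 1, at -0.53 (adjusted p = 0.00146) and 0.35 (adjusted p = 0.00993). For 201017_at, with signals of 323, 369 and 407 with miR-376a*G, 466, 401 and 363 with miR-376a*A, and 372, 537 and 601 in control cells, control replicate 1 lay among the treated arrays. Its differences from control were -0.46 with miR-376a*G and -0.29 with miR-376a*A (limma adjusted p = 0.176 and 0.469), and -0.63 and -0.46 without that array (adjusted p = 0.00584 and 0.0311). The dimmest of the 4, 201016_at, turned from 0.13 to -0.28 with miR-376a*A and from 0.12 to -0.29 with miR-376a*G when that array was left out (adjusted p = 0.161 and 0.138 without it).

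The subunits of eIF2, which carries the initiator tRNA, differed by at most 0.11 in their brightest probe sets. EIF2S1, the alpha subunit that stress kinases phosphorylate, had signals of 1489, 1568 and 1741 after miR-376a*A, 1713, 1587 and 1642 after miR-376a*G, and 2094, 1604 and 1555 in control cells in 201144_s_at. Its log2 differences from control were -0.07 for the unedited and 0.02 for the edited form (SE 0.05 for each, limma adjusted p = 0.587 and 0.901). Its other probe sets, 201142_at and 201143_s_at, were at -0.23 and -0.22 with miR-376a*G (adjusted p = 0.200 and 0.422), and without control replicate 1 they passed at -0.27 and -0.34 (adjusted p = 0.0329 and 0.0482). The brightest probe set was then at -0.07 with miR-376a*A and stayed at 0.02 with the edited form, so the 3 probe sets of EIF2S1 do not give 1 answer.

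EIF2S2, the beta subunit that contacts eIF5, had signals of 1657, 1675 and 1893 after miR-376a*A, 1778, 1676 and 1854 after miR-376a*G, and 2859, 1621 and 1570 in control cells in its bright probe set, 208726_s_at. The log2 differences from control were -0.06 for the unedited and 0.03 for the edited form (SE 0.09 for each, limma adjusted p = 0.821 and 0.920). They were 0.03 and 0.11 without control replicate 1 (adjusted p = 0.792 and 0.274), so the first turns its sign. The second probe set, 208725_at, was dim and differed. It gave 30.8, 46.8 and 45.1 after miR-376a*A, 43.9, 45.8 and 41.0 after miR-376a*G, and 11.3, 26.3 and 18.7 in control cells. All 6 treated arrays lay above all 3 controls. Signals that did not overlap with control, in either direction, were seen in 19.1% of all probe sets for the unedited and 20.9% for the edited form. The share with both forms above control is not given here.

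The difference of 208725_at was 0.85 (SE 0.19) with miR-376a*G against control, the one probe set of the 24 tested for the other 7 genes that passed (limma adjusted p = 0.0367, with 3.76% of all probe sets called). With miR-376a*A it was 0.77 (SE 0.19, adjusted p = 0.0655, with 2.81% called). Leaving out control replicate 1, the lowest, gave 0.66 (adjusted p = 0.0170) and 0.58 (adjusted p = 0.0349). Leaving out control replicate 3, any miR-376a*G array, or miR-376a*A replicate 2 or 3 ended the call with miR-376a*G (adjusted p = 0.0642 to 0.138). No detection calls were used here, so whether these signals stand above background is not known, and the pseudocount shrinks their fold change.

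EIF2S3, the gamma subunit, which binds GTP and the tRNA, gave 669, 717 and 688 after miR-376a*A, 742, 753 and 734 after miR-376a*G, and 614, 766 and 832 in control cells in 224936_at. The control arrays spanned both treated groups. The log2 differences from control were -0.11 for the unedited and 0.00 for the edited form (SE 0.11 for each, limma adjusted p = 0.710 and 0.998). The difference with miR-376a*A was -0.23 without control replicate 1 (95% interval -0.38 to -0.07, adjusted p = 0.0552), and with miR-376a*G -0.12 (adjusted p = 0.281). The other 2 probe sets, 205321_at and 224935_at, were at -0.22 and -0.08 with miR-376a*A, neither past the threshold. They were at -0.22 and -0.30 without that array (adjusted p = 0.168 and 0.0560), and 224935_at passed with arrays weighted by quality (-0.31, adjusted p = 0.0414) but was above 0 in 4 of its 18 alternatives.

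Over the 24 tested probe sets of these 7 genes, 0 passed with miR-376a*A against control, 1 with miR-376a*G and 0 between the forms. Of all probe sets 2.81%, 3.76% and 2.04% were called. At an unadjusted p under 0.05 in limma there were 2, 5 and 3, and the share of all probe sets at that level is not given here. Without control replicate 1 the counts past the threshold were 2, 5 and 2, with 11.5%, 14.7% and 8.12% of all probe sets called. The 5 for miR-376a*G were 4 lower, 2 each of EIF1AX and EIF2S1, and the dim one of EIF2S2, higher (of all probe sets 7.58% were called lower and 7.11% higher).

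**Figure D3:**
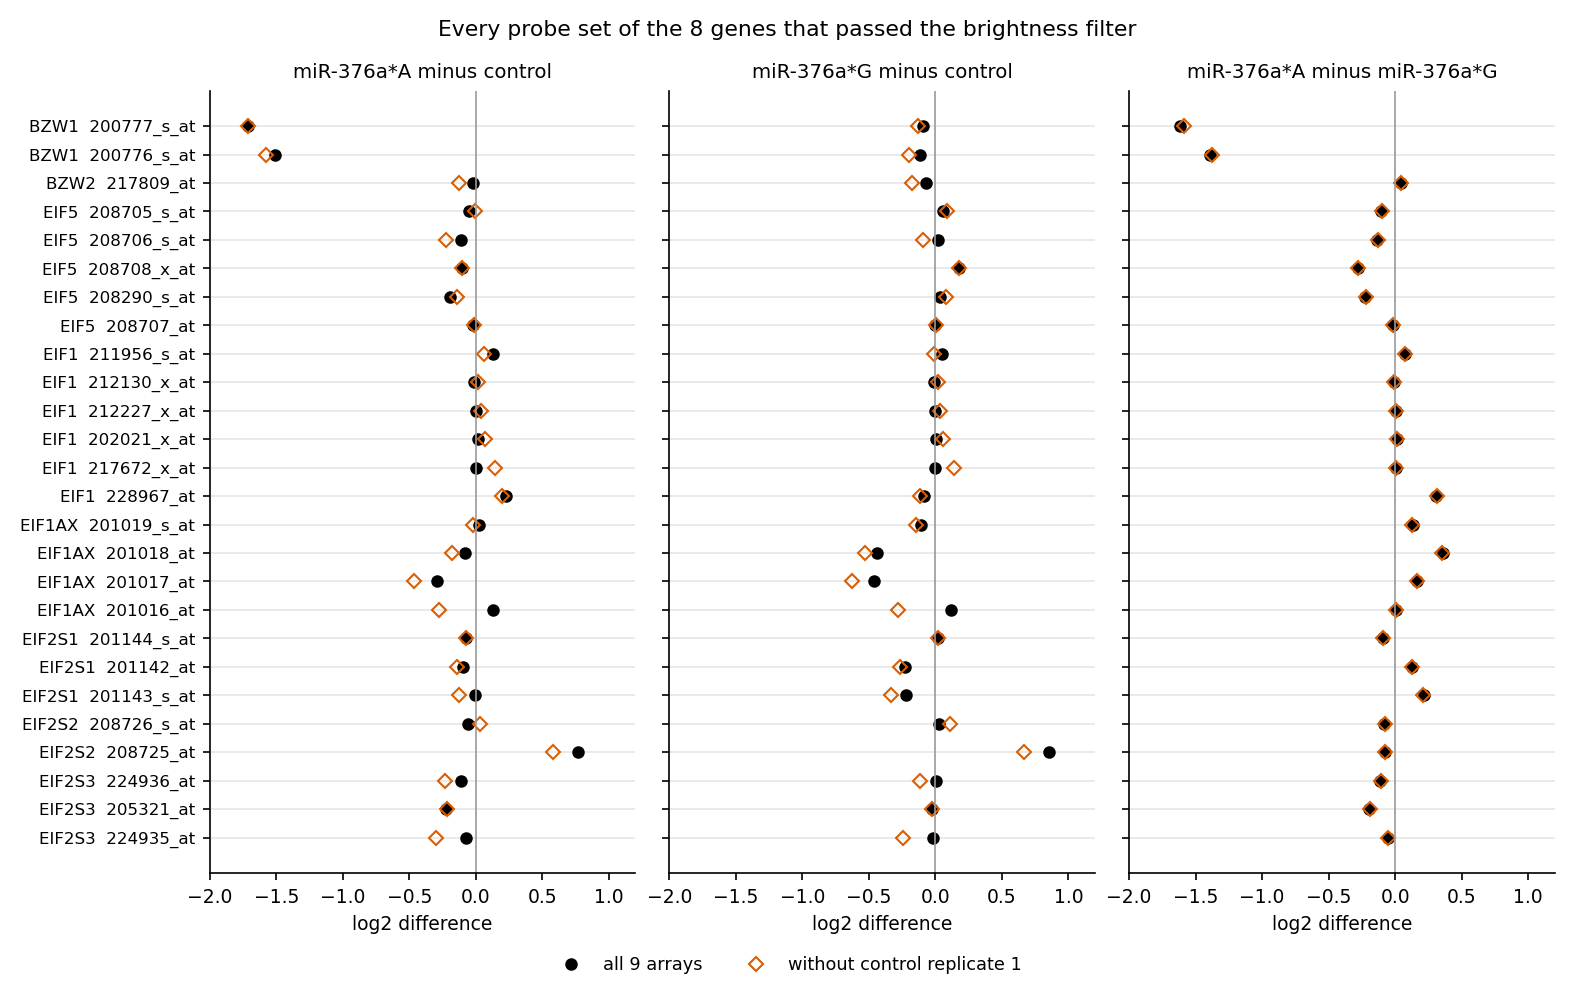
Log2 difference of each of the 26 probe sets that passed the brightness filter, for the 3 comparisons, with all 9 arrays (filled) and without control replicate 1 (open). The BZW1 pair stands at -1.71 and -1.51 with miR-376a*A, EIF2S2 208725_at at 0.77 and 0.85 against control, and EIF1AX 201016_at changes side when the array is left out.

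**Figure D4:**
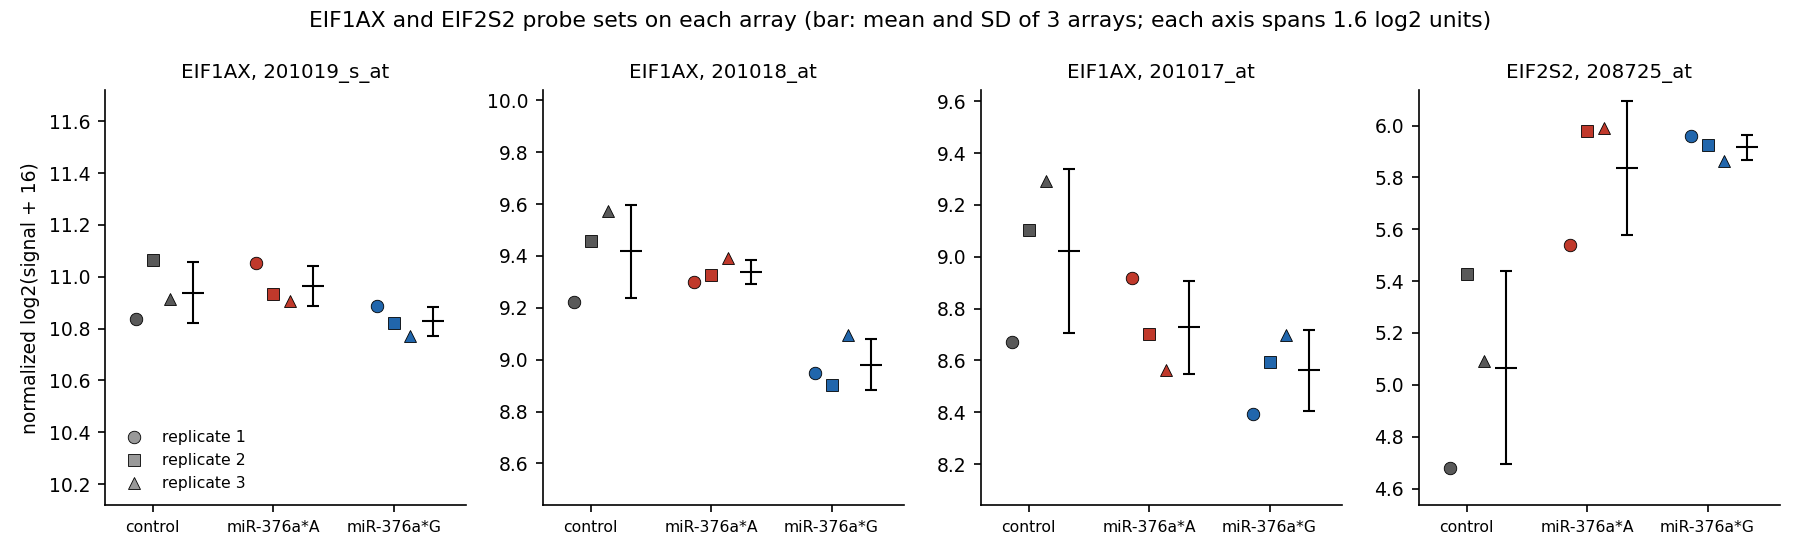
Normalized log2(signal + 16) of 3 EIF1AX probe sets and the dim EIF2S2 probe set on each array, by group, with the mean and SD of 3 arrays. The miR-376a*G arrays are lowest in 201018_at, and control replicate 1 is the lowest control in all 4 panels.

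The wider translation machinery was read from 7 lists with 96 genes, of which 87 were tested. The lists too were chosen with earlier results of these data known. With miR-376a*A against control 3 of the 87 passed limma's test (3.45%, against 3.33% of all genes), with miR-376a*G against control 7 (8.05%, against 4.62%) and between the forms 5 (5.75%, against 2.63%). By direction, 1 list gene was higher and 2 lower with miR-376a*A (1.95% and 1.38% of all genes), 3 higher and 4 lower with miR-376a*G (2.50% and 2.12%), and 4 higher and 1 lower between the forms (1.39% and 1.24%). In each comparison the list genes had a median within 0.05 of 0. Without control replicate 1 the counts were 11, 21 and 14, with 13.4%, 17.0% and 9.72% of all genes called. Genes named below only for a call without that array were chosen after their values were seen. With the replicate number as a block 4 passed for miR-376a*G against control, where 2.88% of all genes did.

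Among 11 other start site, initiator tRNA and related factors, DENR fell with miR-376a*A and no other gene passed with all 9 arrays. DENR works with MCTS1 in the recycling of small ribosomal subunits and in reinitiation after short upstream reading frames. Its signals were 579, 568 and 587 after miR-376a*A, 907, 908 and 944 after miR-376a*G, and 808, 1036 and 984 in control cells. The miR-376a*A arrays lay below all others. Deposited signals of 19.1% of all probe sets did not overlap, in either direction, for miR-376a*A against control, and of 26.4% between the forms. The share with miR-376a*A below both other groups at once is not given here. The difference was -0.72 (SE 0.10, limma adjusted p = 0.00425) against control and -0.67 (SE 0.10, adjusted p = 0.00734) against miR-376a*G, with -0.05 for miR-376a*G against control (adjusted p = 0.844).

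In both comparisons of miR-376a*A the direction of DENR was the same under the 19 alternatives, and 1 ended both calls: averaging its 4 probe sets gave -0.43 (adjusted p = 0.0687) against control and -0.39 (0.126) between the forms. These differences were -0.83 and -0.65 without control replicate 1. With miR-376a*G against control DENR ran from -0.19 to 0.03 over the alternatives, with 2 changes of sign and a call with arrays weighted by quality (-0.19, adjusted p = 0.0378). The dimmer probe sets stood at -0.50, -0.39 and -0.12 against control. MCTS1, its partner, was at 0.11 and 0.09 against control with miR-376a*A and miR-376a*G (limma adjusted p = 0.606 and 0.630). The list median was 0.06 with miR-376a*A. Further genes passed without control replicate 1: EIF5A with miR-376a*A (0.51, adjusted p = 0.0381), EIF6 (0.23, 0.0307) and EIF1AD (0.28, 0.0470) with miR-376a*G, and EIF1AD between the forms (-0.30, 0.0342). EIF5A and EIF6 are counted here among the related factors, not those of start codon selection.

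The genes of 3 other proteins with a W2 domain were tested, and none passed limma's test in any comparison with all 9 arrays. EIF2B5, the catalytic subunit of the exchange factor that reloads eIF2 with GTP, was at -0.33 with miR-376a*A against control (limma adjusted p = 0.271). EIF4G1, the scaffold of cap-dependent initiation, was at -0.06 and its relative EIF4G2 at 0.11. Without control replicate 1 EIF4G1 passed with miR-376a*G (-0.27, adjusted p = 0.0496), and EIF4G2 was at -0.16 with miR-376a*A.

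Of 15 genes for eIF2B, the eIF2 kinases, their phosphatase and the eIF2 assembly factor CDC123, 1 rose with the unedited form and 2 with the edited one, and 0 were lower with all 9 arrays. Of all genes 1.95% and 2.50% were called higher. PPP1CC, a catalytic subunit of protein phosphatase 1, which among many other substrates dephosphorylates eIF2 alpha, gave 1324, 1310 and 1268 after miR-376a*A, 1341, 1297 and 1384 after miR-376a*G, and 323, 538 and 538 in control cells. Every treated array was above every control. Signals that did not overlap with control, in either direction, were seen in 19.1% of all probe sets for the unedited and 20.9% for the edited form. The share with both forms above control is not given here. It rose by 1.44 (SE 0.15, limma adjusted p = 0.000669) and 1.51 (SE 0.15, adjusted p = 0.000530), and by 1.21 and 1.27 without control replicate 1.

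CDC123, which joins the subunits of eIF2, rose with miR-376a*G by 0.51 (SE 0.08, limma adjusted p = 0.00565), and by 0.48 without control replicate 1. With miR-376a*A it was at 0.32 (SE 0.08, adjusted p = 0.0685, and 0.0267 without control replicate 1). Between the forms CDC123 was at -0.19 (adjusted p = 0.401). Lower calls appeared in this list without control replicate 1. PPP1R15B, a regulatory subunit that directs the phosphatase to eIF2, was then at -0.37 for the unedited and -0.33 for the edited form (adjusted p = 0.0165 and 0.0233). PPP1CB, another catalytic subunit, was at -0.51 with miR-376a*G (0.00395) and at 0.35 between the forms (0.0203).

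None of 12 eIF3 subunits passed with all 9 arrays, with medians of -0.01, 0.03 and -0.07 in the 3 comparisons. When control replicate 1 was left out, EIF3G (0.28, adjusted p = 0.0187) and EIF3A (-0.42, 0.0392) passed with miR-376a*G, and EIF3A between the forms (0.56, 0.00690). A further list held eIF4 factors, eIF4E binding proteins and the poly(A) binding protein with its partners, 13 genes tested. In it PABPC1, the poly(A) binding protein, rose (0.20, limma adjusted p = 0.0362) and PAIP2, which restrains it, fell (-0.29, adjusted p = 0.0427) with miR-376a*G against control. Both calls ended with the replicate number as a block (adjusted p = 0.0744 for each), under the other scalings tried, and when any treated array or control replicate 2 was left out, PAIP2 also without control replicate 3 (adjusted p = 0.0698 to 0.165). The other scalings also took PABPC1 down to 0.08 and 0.02, while PAIP2 was at -0.23 and -0.30. Leaving out control replicate 1 kept both calls, at 0.18 and -0.34. Between the forms PAIP2 was higher with the unedited one by 0.51 (SE 0.07, limma adjusted p = 0.00301), with signals of 1372, 1393 and 1481 against 976, 958 and 998. A second PAIP2 probe set gave 0.62 and the third -0.13. With miR-376a*G against control the second was at -0.47 (limma adjusted p = 0.00926, over all probe sets) and the third at 0.06 (0.851). Averaging the probe sets of PAIP2 ended its call there (-0.23, adjusted p = 0.0995). Calls added in this list without control replicate 1 were EIF4B (-0.31) and EIF4E3 (0.54) with miR-376a*A, EIF4E3 (0.42) and EIF4G1 (-0.27) with miR-376a*G, and EIF4B (-0.28) and EIF4EBP2 (-0.75) between the forms.

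Of 10 elongation and termination factors, ETF1, the release factor that reads stop codons, fell with miR-376a*G by 0.38 (SE 0.08, limma adjusted p = 0.0213), and between the forms it was higher with the unedited one by 0.40 (SE 0.08, adjusted p = 0.0235). Its second probe set gave -0.49 and 0.51, and without control replicate 1 the first gave -0.41 and 0.38, both past the threshold. Both calls ended under the other scalings tried and when any miR-376a*G array or miR-376a*A replicate 2 or 3 was left out, the second also without miR-376a*A replicate 1 (adjusted p = 0.0501 to 0.138) or with the replicate block (0.0578).

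ATF4 and 25 genes regulated by it had medians of -0.01, -0.04 and -0.02 in the 3 comparisons. Of them 1 gene was lower in the first, 2 were lower in the second and 2 higher between the forms. Of all genes 1.38%, 2.12% and 1.39% were called in those directions. Without control replicate 1 the calls were 3 higher and 1 lower, 3 higher and 5 lower, and 4 higher and 2 lower. Of all genes 13.4%, 17.0% and 9.72% were then called. The added calls took in PHGDH, the first enzyme of serine synthesis, at 0.61 for the unedited and 0.58 for the edited form (adjusted p = 0.000432 and 0.000537). With the replicate block 1 was lower in the second comparison, where 1.46% of all genes were called lower. Between the forms 3 were then higher, with 0.968% of all genes called higher, GARS1 being the added one (adjusted p = 0.0451). SLC7A11, the cystine transporter, fell by 0.73 with miR-376a*A (SE 0.13, limma adjusted p = 0.0147), a call that ended without any one of the miR-376a*A arrays or without control replicate 2 (adjusted p = 0.0511 to 0.0828) and with arrays centred on their medians (0.0902). It was at -0.89 without control replicate 1, and then at -0.50 with miR-376a*G (adjusted p = 0.000955). DDIT4, an inhibitor of mTORC1 signalling, was higher with the unedited than with the edited form by 0.79 (SE 0.09, adjusted p = 0.00161), with signals of 1060, 1136 and 1271 against 703, 622 and 640.

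Against control DDIT4 was at 0.34 with miR-376a*A (limma adjusted p = 0.0969, and 0.0494 without control replicate 1) and fell by 0.45 with miR-376a*G (adjusted p = 0.0248), and by 0.52 without that array. The fall did not hold with the replicate number as a block (adjusted p = 0.0591). It also ended without control replicate 2 or 3, any miR-376a*G array or miR-376a*A replicate 2 (adjusted p = 0.0588 to 0.116), or under the other scalings tried (0.0651 and 0.220).

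TRIB3, a pseudokinase that restrains ATF4, was higher with the unedited than with the edited form by 0.64 (SE 0.10, limma adjusted p = 0.00849). That call ended without miR-376a*A replicate 2 or 3 or miR-376a*G replicate 2 (adjusted p = 0.0575 to 0.0660). Against control TRIB3 was at 0.26 for the unedited and -0.38 for the edited form, neither past the threshold, and at 0.32 and -0.32 without control replicate 1 (adjusted p = 0.0254 and 0.0209). Its second probe set was at 0.42 and 0.03 against control and at 0.39 between the forms (adjusted p = 0.316). GARS1, the glycyl-tRNA synthetase, fell with miR-376a*G by 0.50 (SE 0.07, limma adjusted p = 0.00428), and by 0.52 and 0.59 under the other scalings tried, where it did not pass (0.0727 and 0.0616). It was at -0.44 without control replicate 1 (0.00175).

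**Figure D5:**
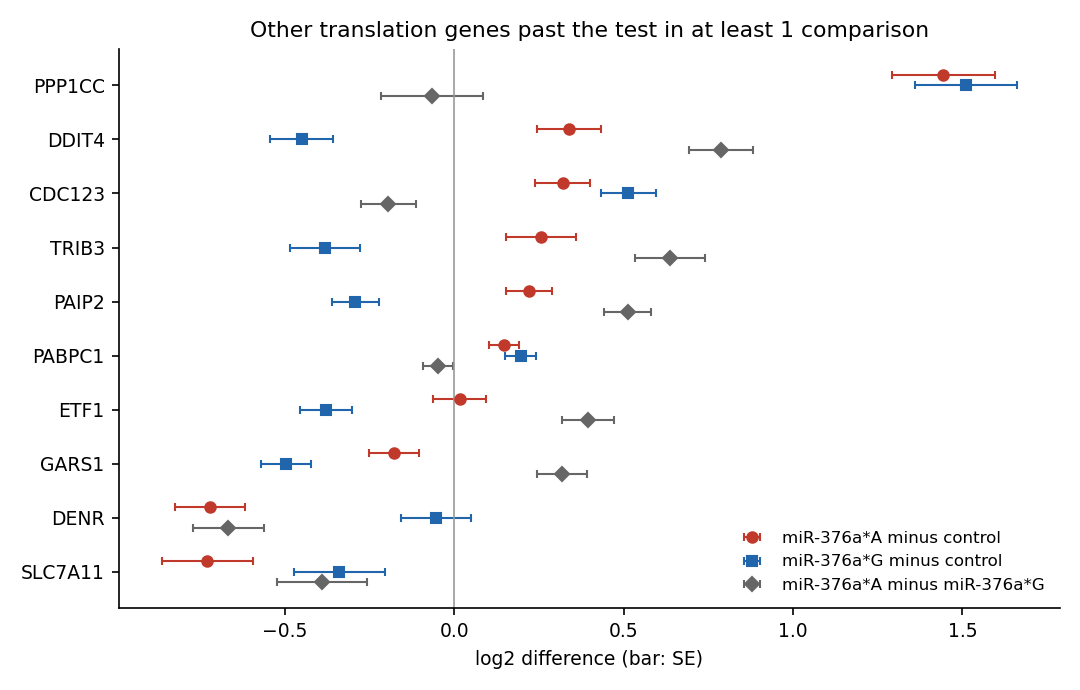
Log2 difference with its SE for the 10 list genes past limma's test in at least 1 of the 3 comparisons, 3 arrays a group. DENR is low where miR-376a*A is compared (-0.72 and -0.67), PPP1CC is high with both forms (1.44 and 1.51), and DDIT4, TRIB3 and PAIP2, each by its brightest probe set, lie on opposite sides of 0 in the comparisons with control, which share the control arrays.

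The 5 genes whose normalized log2 values over the 9 arrays followed BZW1 most closely were LARS2 (Pearson r = 0.997), PITRM1 (0.996), VMA21 (0.995), RRAS2 (0.994) and POMGNT1 (0.993). Without control replicate 1, over 8 arrays, the same 5 had r of 0.994 to 0.999. They were picked for following BZW1, so being low with miR-376a*A and near control with miR-376a*G comes with that choice. Their differences from control ran from -2.23 (RRAS2) to -0.68 (LARS2) with miR-376a*A and from -0.09 to 0.07 with miR-376a*G. The arrays form groups, so r mostly reflects the low miR-376a*A arrays. The other 7 members had r with BZW1 from -0.61 (EIF1) to 0.73 (EIF2S1), with BZW2 at 0.01.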

How the data were processed

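The labels' protocols give Biotin-ULS labelling of total RNA, and the submitters' processing notes name GCOS 1.4.0.036. The authors deposited linear signal intensities, 1 per probe set and array, already scaled (2% trimmed means of 100.01 to 100.013). How probes were summarised is not given in the sources used here.

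Here log2(signal + 16) was quantile normalized, because array medians spanned 0.20 on that scale. Of probe sets with 1 gene symbol (41097), those with a mean at or above the 50th percentile (5.17) were kept: 22896 probe sets, or 12505 genes by their brightest probe set. The 3 groups were fitted together in limma 3.58.1 (R 4.3.3, lmFit and eBayes with trend), with Benjamini-Hochberg adjustment over the whole table and a threshold of 0.05. The limma fit alone was tested on simulated data with independent noise. Normalization, the filter and the choice of probe sets were not part of that test, and neither was an outlying array. An exact test of 3 against 3 arrays cannot go below 0.1, and the number of arrays limits the precision.

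Members and lists were chosen with earlier results of these data known. Named were all members, list genes past the threshold and the 5 genes most correlated with BZW1. Same-numbered miR-376a*G and control arrays deviated together (r of 0.125 to 0.187, limit 0.1), so the replicate number was also fitted as a block. With miR-376a*A the correlations were -0.361 to 0.032 against control and -0.098 to -0.031 between the forms. A shared culture or day is named nowhere in the labels.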

Additional observations from a re-analysis of the deposited data

How the results depend on the processing

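BZW1 kept its direction under the 19 alternatives, at -1.75 to -1.60 for miR-376a*A against control, -0.14 to -0.05 for miR-376a*G against control and -1.66 to -1.51 between the forms. Of the 399 values of the other 7 genes 2 passed, 1 for miR-376a*G against control with arrays weighted by quality (EIF1AX) and 1 there with the mean of a gene's probe sets (EIF2S2, 0.44, limma adjusted p = 0.0359), and 38 changed sign without a call. The EIF2S2 value averages its bright probe set, at 0.03, with the dim 208725_at, at 0.85, so the call rests on the dim one.

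In the order miR-376a*A against control, miR-376a*G against control and between the forms, array weights gave 2315, 2427 and 1656 genes past the threshold, 15, 24 and 16 list genes and 3, 5 and 3 member probe sets. The main fit had 417, 578 and 329 genes past the threshold, so weights raised the calls among all genes too. The share of all probe sets called with weights, or with only the 6 arrays compared, is not given here. No gain of the members over other probe sets can be read from those counts. Fitting only the 6 arrays compared gave 156, 204 and 1292 genes, 3 list genes in the second comparison and 14 in the last, and 0 and 2 member probe sets there. For miR-376a*G against control, list genes past the threshold came to 3 with arrays centred on their medians and 3 without normalization, and member probe sets to 0 with no filter. With the replicate block, which follows the pairing by number, this comparison had 360 genes and 4 list genes, and no member's call changed. Centring on medians called 227 genes higher and 108 lower with miR-376a*A, against 244 and 173, and 288 and 162 with miR-376a*G, against 313 and 265.

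Leaving out 1 array gave 176 to 1670, 236 to 2124 and 143 to 1215 genes, 2 to 11, 3 to 21 and 3 to 14 list genes, and 0 to 2, 0 to 5 and 0 to 2 member probe sets. The highest of each came without control replicate 1, where 11.5%, 14.7% and 8.12% of all probe sets were called. The cause of these higher counts was not tested.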
